A study of Mus musculus with 4 samples.

Results

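The NuRD complex and the Chd remodellers of F123-ESCs were examined through 10 genes, Chd4, Chd1, Hdac1, Hdac2, Mta1, Mta2, Mta3, Mbd3, Gatad2a and Gatad2b. They were found by gene symbol among the 24026 genes with an RPKM (reads per kilobase of gene, scaled to the total of reads) for each allele, and all 10 were present and passed the filter of at least 1 RPKM over both alleles. F123-ESCs are a male hybrid mouse embryonic stem cell line of genotype S129/CAST, in which the maternal autosomes come from S129/Jae and the paternal ones from Cast mice. RNAseq of polyA-enriched RNA was carried out on 4 libraries of untreated cells (replicates 1 to 4), which had been kept on feeder fibroblasts, moved onto gelatin without feeders and harvested after about 48 h. There was 1 cell line and 1 condition, so the comparisons are between genes, between libraries and between the alleles within a library. The labels do not say whether the libraries came from separate cultures, and the p-values measure the spread between these libraries.

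NuRD, the nucleosome remodelling and deacetylase complex, joins an ATP-driven remodeller of nucleosomes to histone deacetylases, and proteins of the Mta, Mbd and Gatad2 families hold these activities together. In embryonic stem cells it lowers the transcription of many genes, including genes of pluripotency, and cells that lack Mbd3 are known to commit poorly to differentiation. Chd1 is a remodeller of the same protein family that does not belong to NuRD; it binds histone H3 methylated at lysine 4 and accompanies transcription.

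In mm10 coordinates, Chd4 (ENSMUSG00000063870) spans chr6:125095981-125130591 and Chd1 (ENSMUSG00000023852) spans chr17:15704967-15772610. Of the deacetylases, Hdac1 (ENSMUSG00000028800) lies at chr4:129516104-129542713 and Hdac2 (ENSMUSG00000019777) at chr10:36974544-37001889. Mta1 (ENSMUSG00000021144) lies at chr12:113098278-113137206, Mta2 (ENSMUSG00000071646) at chr19:8941875-8952303 and Mta3 (ENSMUSG00000055817) at chr17:83706163-83821516. Mbd3 (ENSMUSG00000035478) lies at chr10:80392539-80399550, Gatad2a (ENSMUSG00000036180) at chr8:69907076-69996384 and Gatad2b (ENSMUSG00000042390) at chr3:90293178-90363407. The 10 genes are thus spread over 8 autosomes, with Chd1 and Mta3 on chromosome 17 and Hdac2 and Mbd3 on chromosome 10.

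Promoter sequences of 7 of the 10 genes were matched by symbol in RefSeq (build GRCm38.p6, the reference strain, which is neither S129 nor CAST). The first 250 bases upstream of the annotated start are shown for the remodeller Chd4, for Mbd3, Gatad2a and Gatad2b, the genes with the largest differences between the alleles, and for Mta1, the gene with the lowest level. Capitals mark the CCAAT box (ATTGG or its reverse complement) and the GC box (GGGCGG or its reverse complement). Chd4 lies at chr6:125095731-125095980 (plus strand), Mbd3 at chr10:80399532-80399781 (minus strand), Gatad2a at chr8:69996385-69996634 (minus strand), Gatad2b at chr3:90292931-90293180 (plus strand) and Mta1 at chr12:113098028-113098277 (plus strand).
Chd4: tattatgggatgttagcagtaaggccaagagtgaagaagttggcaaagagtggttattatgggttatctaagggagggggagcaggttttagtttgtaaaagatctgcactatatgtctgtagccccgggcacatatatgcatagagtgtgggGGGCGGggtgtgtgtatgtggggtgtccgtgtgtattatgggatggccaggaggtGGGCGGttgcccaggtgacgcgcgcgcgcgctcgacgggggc
Mbd3: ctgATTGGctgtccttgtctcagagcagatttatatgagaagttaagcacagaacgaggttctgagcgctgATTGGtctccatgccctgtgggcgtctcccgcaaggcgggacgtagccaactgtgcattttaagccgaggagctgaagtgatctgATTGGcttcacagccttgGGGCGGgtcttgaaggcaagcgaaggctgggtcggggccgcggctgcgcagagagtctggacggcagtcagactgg
Gatad2a: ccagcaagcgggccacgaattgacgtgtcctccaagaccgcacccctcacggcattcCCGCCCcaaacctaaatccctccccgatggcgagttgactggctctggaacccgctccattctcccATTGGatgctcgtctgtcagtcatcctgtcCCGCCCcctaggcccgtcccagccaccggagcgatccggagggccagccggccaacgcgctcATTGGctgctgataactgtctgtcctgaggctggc
Gatad2b: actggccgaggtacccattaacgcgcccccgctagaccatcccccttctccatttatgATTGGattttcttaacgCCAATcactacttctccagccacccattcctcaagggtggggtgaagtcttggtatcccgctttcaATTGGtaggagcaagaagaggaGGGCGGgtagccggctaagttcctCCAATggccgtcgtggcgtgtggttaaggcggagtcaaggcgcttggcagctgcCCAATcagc
Mta1: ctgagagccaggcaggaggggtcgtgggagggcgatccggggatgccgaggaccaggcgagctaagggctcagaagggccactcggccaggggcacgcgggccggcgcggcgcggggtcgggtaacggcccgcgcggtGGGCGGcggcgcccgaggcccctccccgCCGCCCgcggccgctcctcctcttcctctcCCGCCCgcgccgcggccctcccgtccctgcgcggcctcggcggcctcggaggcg

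A GC box was present in all 7 promoters matched, against 32.7% of 32851 promoters of the same length. The CCAAT box occurred 3 times at Mbd3, 2 times at Gatad2a and 5 times at Gatad2b, and at none of the other 4 genes, whereas 33.8% of all promoters held at least one. The TATA box (TATAAA, 12.4% of all promoters) was found at Mbd3, the ETS motif (CCGGAAG, 6.91%) at Mta2 and the E-box (CACGTG, 6.02%) at none. All motifs were searched on both strands. The letters of the CCAAT box and the GC box can share bases, which they did not in the promoters shown. The number of CpG dinucleotides ran from 12 at Chd4 to 39 at Mta1, against a median of 6 over all promoters. A match of letters is a description and does not show that a factor binds there. By GENCODE M21, which sets some starts further upstream, the last 19 bases shown for Mbd3 and the last 3 for Gatad2b belong to the first exon.

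Reads that cover a SNP between the strains numbered from 34120416 to 56627972 per library over both alleles, so that low values are more precise in replicate 1 than in replicate 4. Pluripotency genes were expressed, with all 7 markers at 29.5 RPKM or more with the deposited lengths and a median of 84.5 RPKM. Their sum was 1320 to 1587 RPKM per library, and 701 to 873 RPKM on the length of all annotated exons. On that length Klf4 had 17.8 RPKM and Pou5f1 17.9 RPKM. Among 7 fibroblast markers, 4 reached 1 RPKM, and their sum was 163 to 208 RPKM per library, of which Col1a2 made up 166 RPKM on average; Lum had 0.046 RPKM, Dcn 0.659 and S100a4 0.338. On the length of all annotated exons this sum was 18.9 to 24.3 RPKM. Primitive endoderm markers summed to 46.7 to 53.7 RPKM, mostly Dab2, with Sox17 at 0.326 and Sox7 at 0.273 RPKM, and neural markers to 68.2 to 85.1 RPKM, mostly Nes, with Pax6 at 0.413 RPKM. On the length of all exons these sums were 5.77 to 6.55 RPKM and 14.5 to 18.2 RPKM. The part of other cells in the levels given here was not tested, and in bulk RNA a smaller number of cells of a type and less RNA per cell cannot be told apart.

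Levels of the 10 genes, as the mean RPKM of both alleles, spanned from 1.37 to 110 RPKM with a median of 46.4 RPKM, while the median of 20261 protein-coding genes was 1.68 RPKM. Hdac1, a histone deacetylase, had the highest level with 101, 123.4, 122 and 95.6 RPKM in replicates 1 to 4, or 110 ± 14.3 RPKM (SD, n = 4). The other deacetylase of NuRD, Hdac2, had 93.8, 95.8, 96.2 and 76.4 RPKM (90.5 ± 9.48, SD, n = 4). Mbd3, which links the deacetylase part of the complex to the remodeller and resembles the methyl-CpG binding protein Mbd2, followed with 78.7, 86.9, 91.2 and 71.2 RPKM (82.0 ± 8.90, SD, n = 4). The order of these 3 genes was kept within each of the 4 libraries, although the range of Hdac2 over the libraries overlapped with those of both neighbours.

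Chd4, the ATPase of NuRD, had 52.8, 63.1, 64.4 and 54.9 RPKM (58.8 ± 5.82, SD, n = 4) and Mta3, a scaffold protein that recruits the deacetylases, had 51.3, 55.9, 56.3 and 55.8 RPKM (54.8 ± 2.37, SD, n = 4). Their ranges overlapped, and Chd4 was above Mta3 in 3 of 4 libraries. Mta2, a scaffold protein of the same family, had 38.0 ± 3.39 RPKM (SD, n = 4). Gatad2a, which binds the Mbd protein and Chd4, had 26.9 ± 3.06 RPKM, and Chd1 had 19.3 ± 1.63 RPKM (SD, n = 4 each). From Mta3 downwards no gene overlapped with its neighbour in the order with the deposited lengths.

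The lowest levels were those of Gatad2b, the paralog of Gatad2a, with 4.11, 4.52, 5.13 and 4.86 RPKM, and of Mta1, the third scaffold protein, with 1.17, 1.36, 1.47 and 1.49 RPKM. With the deposited lengths, Gatad2b was above 61.5% of protein-coding genes and Mta1 above 48.1%. By contrast, Hdac1, Hdac2, Mbd3, Chd4 and Mta3 each stood above at least 90% of them. Thus both ends of the scale contain subunits of the same complex. These percentages were not computed on the length of all annotated exons, where Mta3 had 17.8 RPKM, below Mta2 (29.1) and Gatad2a (24.1). Mta1 rested on 724 reads over all libraries and alleles and Chd4 on 74338.

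**Figure D1:**
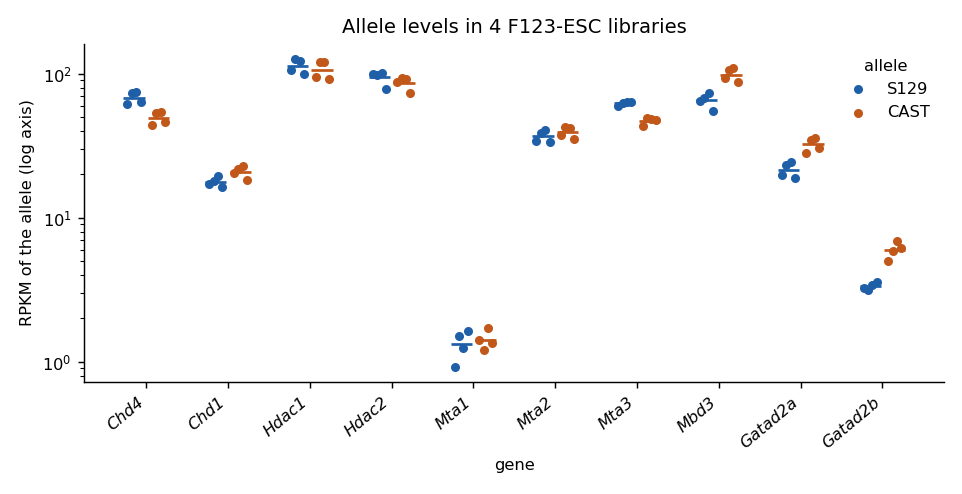
RPKM (log axis) of the S129 and the CAST allele of each of the 10 genes; points are the 4 libraries and bars their mean. Hdac1 and Hdac2 are at the top, Mta1 is near 1 RPKM, and the alleles stand apart for Chd4, Mta3, Mbd3, Gatad2a and Gatad2b.

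The order depends on the gene length behind the RPKM, which was that of a single transcript. With the length of all annotated exons, the order became Hdac1 (65.4 RPKM), Chd4 (48.8), Mbd3 (46.1), Hdac2 (40.6), Mta2 (29.1), Gatad2a (24.1), Mta3 (17.8), Chd1 (17.5), Gatad2b (3.03) and Mta1 (1.25 RPKM). In this order the ranges of Chd4 and Mbd3, of Mbd3 and Hdac2, of Mta2 and Gatad2a and of Mta3 and Chd1 overlapped. Mta3 was above Chd1 in 1 of 4 libraries only. Mta3 had the largest ratio between both lengths, 1723 bp behind its RPKM and 5319 bp of annotated exons. Gatad2b and Mta1 were the lowest under both lengths. Reads that cover no SNP enter none of these levels, so the order is that of reads over SNPs.

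Hdac1 has similar copies in the genome. They are the processed pseudogenes Gm10093 (99.4% identity over 1444 bases), AC125456.1 (96.3% over 1450 bases) and Gm4864 (94.6% over 1469 bases) and the gene Gm21834 (90.1% over 453 bases). None of them was in the RPKM table, so reads shared between Hdac1 and these copies make its level uncertain. The difference between its alleles and its share and ratio beside Hdac2, given below, rest on the same reads and share this limit. For the other 9 genes no transcript of another gene matched over at least 400 bases at 90% identity. Exons of Chd4 share 63 of 8019 bases with the microRNA gene Mir7045, and those of Gatad2b share 247 of 11443 bases with the antisense gene 4930537H20Rik. The kit was stranded, but the strand setting of the counting is not given in the sources used here.

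Between libraries the levels of most members moved in parallel. Of the 10 genes, 9 had their highest level in replicate 2 or 3, with Mta1 highest in replicate 4, and all 10 had their lowest in replicate 1 or 4 (5 genes each). The median of 11103 autosomal genes with at least 1 RPKM deviated in the same direction, by -0.03, 0.06, 0.08 and -0.10 on the log2 scale in replicates 1 to 4. The coefficient of variation of the 10 levels ranged from 4.32% (Mta3) to 12.9% (Hdac1) with a median of 10.2%, compared with 9.08% over these autosomal genes. After each library was divided by its median ratio, the coefficient was smaller in 7 of 10 genes and ran from 3.16% (Chd1) to 12.4% (Mta1). The parallel movement of the members was therefore not particular to them, and no condition differs between the libraries.

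**Figure D2:**
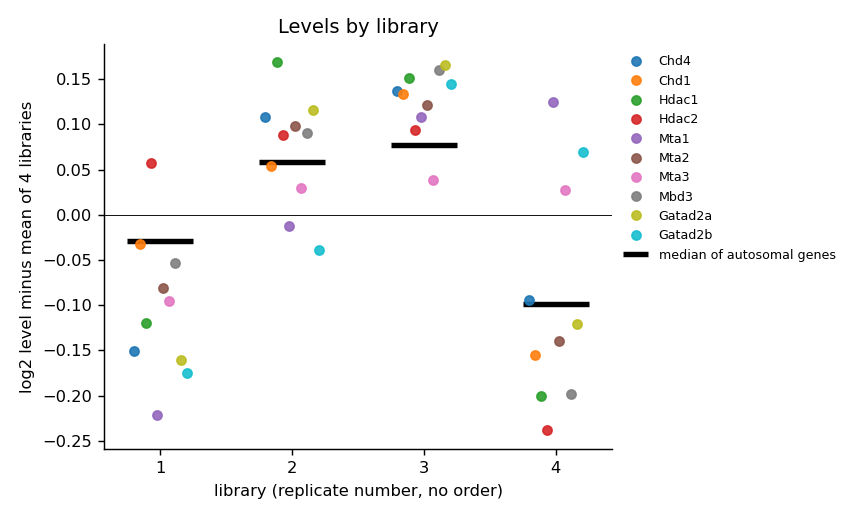
Level of each of the 10 genes in each library, as log2 difference from its mean over the 4 libraries; black bars give the median of 11103 autosomal genes. Most genes lie above 0 in replicates 2 and 3 and below 0 in replicates 1 and 4, and the bars move the same way.

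Next, expression from the S129 and the CAST allele was compared within each library. The difference is given as the mean of log2(RPKM+0.1) of S129 minus CAST over 4 libraries, with the SE from limma. In this SE the variance of a gene over the libraries is drawn toward that of all genes tested. It can therefore be larger or smaller than the plain SE over the 4 libraries. The difference was tested by limma over 13341 genes with Benjamini-Hochberg adjustment, and a gene was called at an adjusted p under 0.05. By this test 7 of the 10 genes differed between the alleles, 3 with more S129 (Chd4, Mta3 and Hdac2) and 4 with more CAST (Chd1, Mbd3, Gatad2a and Gatad2b), while 62.7% of all genes tested were called, 31.4% toward S129 and 31.3% toward CAST. The RPKM of the alleles did not overlap over the 4 libraries for 5 genes, Chd4, Mta3, Mbd3, Gatad2a and Gatad2b, against 45.6% of all genes. The median size of the difference was 0.31 for the 10 genes and 0.31 for all genes tested. In these counts the members were thus close to the background. The background includes X-linked genes, whereas all 10 genes are autosomal. Of 12869 autosomal genes, 61.4% were called. With a filter of at least 10 RPKM over both alleles, which Gatad2b and Mta1 did not reach, 8 of the 10 genes were called, against 73.3% of 8009 genes.

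Among the remodellers, Chd4 was higher from S129, with 61.3, 73.2, 74.5 and 63.3 RPKM in replicates 1 to 4, compared with 44.3, 53.0, 54.3 and 46.5 RPKM from CAST. Every S129 value was above every CAST value, and the S129 share of reads was nearly the same in all libraries, at 58.8% ± 0.163 (SD, n = 4), with 95% exact binomial intervals within 57.8% and 59.7%. The difference was 0.46 ± 0.029 (1.37-fold; limma with Benjamini-Hochberg adjustment, adjusted p = 0.000324). Chd1 leaned the other way, with 17.2, 18.1, 19.5 and 16.3 RPKM from S129 and 20.4, 21.8, 22.7 and 18.2 RPKM from CAST. Its alleles overlapped between libraries but CAST was higher within each of the 4, by -0.22 ± 0.034 for S129 minus CAST (1.17-fold; limma with Benjamini-Hochberg adjustment, adjusted p = 0.00534). Without the pairing of alleles by library, Chd1 was not called (limma with Benjamini-Hochberg adjustment, adjusted p = 0.0817), and 5 of the 10 genes were, against 48.2% of all genes.

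Both deacetylases were nearly balanced. Hdac2 had 99.4, 98.0, 101 and 78.9 RPKM from S129 and 88.1, 93.6, 91.6 and 73.9 RPKM from CAST, and Hdac1 had 107, 126, 123.5 and 99.7 RPKM from S129 and 95.1, 121, 120 and 91.5 RPKM from CAST. S129 was higher in 4 of 4 libraries for both genes, with ranges that overlapped. The difference of Hdac2 was 0.12 ± 0.034 (limma with Benjamini-Hochberg adjustment, adjusted p = 0.0380), and leaving out any of the 4 libraries ended the call (adjusted p from 0.0686 to 0.130). That of Hdac1 was 0.10 ± 0.038 with a 95% interval from -0.0042 to 0.20 (limma with Benjamini-Hochberg adjustment, adjusted p = 0.0832), and it passed the threshold under 5 of the alternatives computed, among them whole reads without scaling by allele totals (0.15, adjusted p = 0.0234). Both deacetylases thus lay close to the threshold.

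Among the 3 scaffold proteins of the Mta family, Mta3 alone was called. Mta3 had 59.3, 62.7, 64.1 and 63.8 RPKM from S129 and 43.2, 49.1, 48.4 and 47.8 RPKM from CAST, without overlap, and a difference of 0.41 ± 0.033 (1.33-fold; limma with Benjamini-Hochberg adjustment, adjusted p = 0.000734). Mta2 had 34.3, 38.6, 40.8 and 33.4 RPKM from S129 and 37.5, 42.6, 41.7 and 35.4 RPKM from CAST. The RPKM of CAST was higher within every library, but the difference of -0.10 ± 0.035 did not pass the test (limma with Benjamini-Hochberg adjustment, adjusted p = 0.0685; 95% interval without adjustment from -0.19 to -0.0033). With whole reads, not scaled by allele totals, it was -0.04 (limma with Benjamini-Hochberg adjustment, adjusted p = 0.349), and replicate 3 had 3139 S129 and 3090 CAST reads. The total of reads was larger for S129 than for CAST in every library. Scaling by these totals therefore moves the difference of each gene toward CAST relative to whole reads. For Mta1 the direction changed from library to library, with 0.922, 1.50, 1.24 and 1.63 RPKM from S129 and 1.42, 1.21, 1.71 and 1.35 RPKM from CAST. Its difference was -0.12 ± 0.19 with a 95% interval from -0.62 to 0.39 (limma with Benjamini-Hochberg adjustment, adjusted p = 0.619). With 64 to 114 reads per allele and library, this interval leaves room for differences toward CAST as large as that of Mbd3. Whether the differences of the 3 Mta genes are unequal was not tested.

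Mbd3 and the Gatad2 genes had the largest differences, all toward CAST. Mbd3 had 64.2, 68.2, 73.4 and 55.3 RPKM from S129 and 93.1, 106, 109 and 87.0 RPKM from CAST. Gatad2a had 19.8, 23.2, 24.3 and 18.8 RPKM from S129 and 28.1, 34.8, 35.8 and 30.5 RPKM from CAST. In both genes the lowest CAST value was above the highest S129 value. The difference was -0.60 ± 0.036 for Mbd3 (1.51-fold, adjusted p = 0.000291) and -0.58 ± 0.044 for Gatad2a (adjusted p = 0.000570; limma with Benjamini-Hochberg adjustment for both). S129 supplied 40.7% ± 0.819 of the Mbd3 reads and 40.9% ± 1.32 of the Gatad2a reads (SD, n = 4).

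Gatad2b had 3.25, 3.13, 3.40 and 3.56 RPKM from S129 and 4.97, 5.90, 6.85 and 6.17 RPKM from CAST. The alleles did not overlap, and replicate 1 had the smallest gap between them. The difference was -0.81 ± 0.075 (1.76-fold; limma with Benjamini-Hochberg adjustment, adjusted p = 0.00104). Its S129 share of reads was 40.3% in replicate 1 (95% exact binomial interval from 38.0% to 42.6%) and 34.0% in replicate 3 (31.9% to 36.3%). These intervals cover counting error only. The S129 share of the 10 genes ran from 36.9% ± 2.69 for Gatad2b to 58.8% for Chd4, and none was expressed from a single allele.

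To set each gene beside its surroundings on the chromosome, the median difference of the tested genes within 5 Mb on either side was taken out in each library. Gatad2b, on chromosome 3, lay among 145 genes whose median difference was -0.84, and the median of the whole chromosome was -0.72. Relative to these neighbours, Gatad2b differed by 0.02 ± 0.18 (SD, n = 4), with S129 above the neighbours in 2 of 4 libraries (limma with Benjamini-Hochberg adjustment, adjusted p = 0.816). The CAST excess of Gatad2b was thus of the size of the median of its neighbours.

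For Mbd3 on chromosome 10, the 185 neighbours had a median of 0.0037, and its difference relative to them was -0.60 ± 0.043 (SD, n = 4; limma with Benjamini-Hochberg adjustment, adjusted p = 0.000432). Mta3 on chromosome 17 also kept its difference, with 0.38 ± 0.048 relative to 58 neighbours (SD, n = 4; adjusted p = 0.00156 by the same limma test). With a window of 2 Mb, however, that of Mta3 was 0.16 and did not pass (adjusted p = 0.0582 by limma), so that its call rests on the wider windows. Chd1, on the same chromosome, had -0.22 ± 0.077 relative to 33 neighbours (SD, n = 4; adjusted p = 0.0129 by limma).

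Chd4 and Gatad2a kept a smaller difference. Chd4 on chromosome 6 had neighbours with a median of 0.19 and differed from them by 0.27 ± 0.027 (SD, n = 4; limma with Benjamini-Hochberg adjustment, adjusted p = 0.00311). Gatad2a on chromosome 8 had neighbours with a median of -0.21 and differed from them by -0.38 ± 0.087 (SD, n = 4; adjusted p = 0.00328 by limma). Hdac2 differed from its neighbours by 0.13 ± 0.064 (SD, n = 4; adjusted p = 0.0550 by limma). Mta2 differed from its neighbours by -0.0099 ± 0.051, Hdac1 by 0.09 ± 0.054 and Mta1 by -0.25 ± 0.46 (SD, n = 4 each), and none of the 3 passed. In all, 5 of the 10 genes were called relative to their neighbours, compared with 56.1% of all genes. With the window of 2 Mb, 4 were called, compared with 55.3% of all genes, and Hdac2 had too few neighbours to enter.

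**Figure D3:**
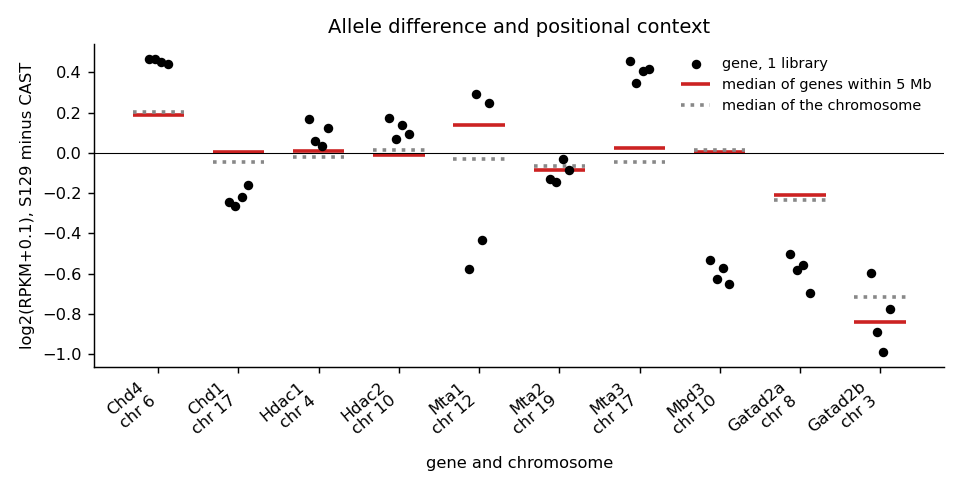
Allele difference, log2(RPKM+0.1) of S129 minus CAST, of each of the 10 genes in each of the 4 libraries (points), with the median of the tested genes within 5 Mb (red bars) and of the chromosome (dotted grey bars). Gatad2b lies at the red bar at -0.84, whereas Mbd3 at -0.60 and Mta3 at 0.41 stand apart from neighbours close to 0.

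NuRD is built from alternative paralogs, and their shares in the summed level of each family were therefore compared. Of the Mta family, Mta3 made up 58.2% ± 1.82, Mta2 40.3% ± 1.92 and Mta1 1.46% ± 0.131 (SD, n = 4). With the length of all annotated exons, Mta2 had the larger share (60.5%, compared with 36.9% for Mta3). The order of Mta2 and Mta3 thus cannot be given without knowing which transcripts are made. Only reads over SNPs are counted, and neither length takes into account how many SNPs each gene holds. The shares and ratios of every family also depend on that number. Mta1 was below Mta2 and Mta3 under both lengths, by 25.9-fold and 37.4-fold with the deposited values (log2 ratios of -4.70 and -5.22) and at log2 ratios of -4.44 and -3.73 with the length of all exons. Hdac1 made up 54.9% of the deacetylase level and Hdac2 45.1%, at a log2 ratio of 0.28 ± 0.12 (SD, n = 4), and 61.6% and 38.4% with the length of all exons.

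Gatad2a made up 85.2% of the Gatad2 level and was 5.67-fold above Gatad2b, and Mbd3 made up 86.6% of the Mbd level and was 6.42-fold above Mbd2, the methyl-CpG binding protein that takes its place in other NuRD complexes. Chd4 made up 93.2% ± 0.171 (SD, n = 4) of the summed level of the NuRD remodellers, with Chd3 at 5.64% and Chd5 at 1.18%. Chd4 was 16.1-fold above Chd3 and 3.04-fold above Chd1. Each of the 9 pairs compared kept its order in all 4 libraries, and each had p = 0.125 by the two-sided exact sign-flip permutation test, also after Benjamini-Hochberg adjustment over the pairs, which is the smallest p that 4 libraries allow. The order of every pair except Mta2 and Mta3 was the same with the length of all exons. A change of length does not account for the number of SNPs per gene, so these folds and shares are those of reads over SNPs.

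**Figure D4:**
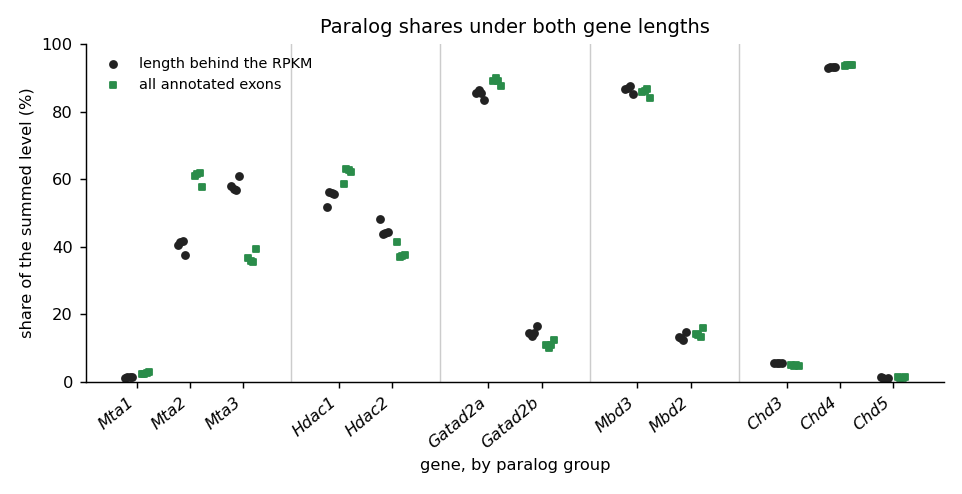
Share of each paralog in the summed level of its family (percent), in each of the 4 libraries, with the deposited RPKM and with RPKM on the length of all annotated exons. Mta2 and Mta3 change places between both lengths, while Chd4, Mbd3 and Gatad2a hold most of their family under both.

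The remaining subunits of NuRD had a median level of 8.09 RPKM, and of 6 tested, 1 was called toward S129 and 3 toward CAST, against 31.4% and 31.3% of all genes. Rbbp4, a histone chaperone, had 134 ± 19.2 RPKM (SD, n = 4), the highest of the complex with the deposited lengths. With these lengths it was 81.4-fold above its X-linked paralog Rbbp7 (1.56 ± 0.287 RPKM, SD, n = 4). The log2 ratio was 6.35 with the deposited lengths and 5.71 with the length of all exons. Rbbp4 rested on 114166 reads over SNPs and Rbbp7 on 692. The number of SNPs in each gene was not taken into account, so this fold is that of reads over SNPs. Rbbp7 was the gene called toward S129; it was read only from S129, with 0 of 692 reads from CAST, which allows a CAST share of up to 0.434%. The X chromosome of this male line is maternal. Cdk2ap1, a small subunit, had the largest autosomal difference of the complex, with 30.5 RPKM from S129 and 153 RPKM from CAST (S129 minus CAST -2.33 ± 0.052; 5.03-fold; limma with Benjamini-Hochberg adjustment, adjusted p = 1.64e-05), and -2.28 ± 0.12 (SD, n = 4) relative to its neighbours. Chd3 (-0.64) and Rbbp4 (-0.13) were also called toward CAST, whereas Mbd2 (0.08) and Chd5 (-0.04) were not called.

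Of the 6 other CHD remodellers, 5 were called toward CAST and none toward S129, with 31.3% of all genes called toward CAST. The largest was Chd9 on chromosome 8, with 4.80 RPKM from S129 and 9.79 RPKM from CAST (-1.01), followed by Chd1l (-0.35) and Chd7 (-0.29). Relative to their neighbours, Chd9 differed by -0.79 and Chd7 by -0.39. Chd1l lies on chromosome 3, as Gatad2b does, and relative to its neighbours its direction turned to 0.51 (limma with Benjamini-Hochberg adjustment, adjusted p = 0.0164). Chd2 was not called (0.04). The levels of the 6 genes were between 5.24 RPKM (Chd6) and 17.5 RPKM (Chd1l), and between 2.16 RPKM (Chd7) and 12.3 RPKM (Chd1l) on the length of all exons.

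**Figure D5:**
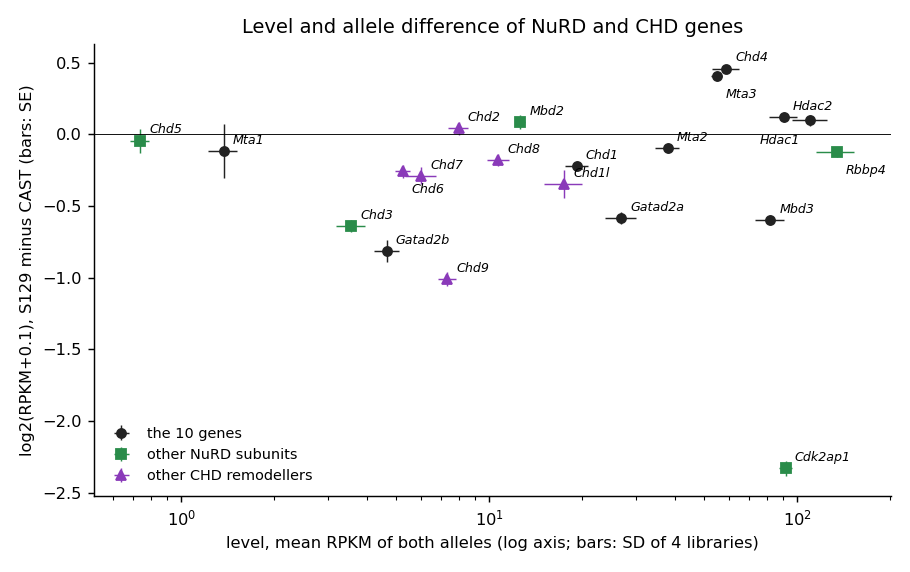
Level (mean RPKM of both alleles, log axis, bars SD of 4 libraries) against allele difference (log2 scale, S129 minus CAST, bars SE from limma). The 10 genes are black, the other NuRD subunits green (without the X-linked Rbbp7) and the other CHD remodellers purple. Chd4 and Mta3 have the largest differences toward S129 among the genes drawn, and Cdk2ap1 lies apart at -2.33.

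Proteins that bind NuRD had a median level of 8.21 RPKM, with 3 of 10 called toward S129 and 3 toward CAST, against 31.4% and 31.3% of all genes. Zmynd8, a bromodomain protein, had 246 RPKM on a transcript of 515 bp, although its annotated exons cover 11031 bp and give 11.5 RPKM. Sall4, a zinc finger protein of pluripotent cells, had 78.4 RPKM, and 35.9 RPKM on the length of all exons. Zfp592 was the lowest at 2.15 RPKM. The largest differences between the alleles were those of Zfp687 (-0.91, on chromosome 3, -0.06 relative to its neighbours), Zmynd8 (0.53) and Zfp296 (0.48).

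Hdac1 and Hdac2 also serve the Sin3, CoREST and MiDAC complexes. Of 17 genes tested from these complexes, 1 was called toward S129 (Sin3b) and 8 toward CAST, while 31.4% and 31.3% of all genes were called in these directions. Their median level was 8.62 RPKM. Sin3a had 138 RPKM on a transcript of 364 bp and Arid4b 45.1 RPKM on one of 571 bp, the highest of the list, but 9.30 and 1.52 RPKM on the length of all exons, where Sap30 had 18.0 RPKM. Brms1 was the lowest at 0.588 RPKM with the deposited lengths. The largest differences called were those of Sap18 (-0.94), Rcor2 (-0.79) and Ing1 (-0.70). Relative to their neighbours these were -0.89 ± 0.15, -0.70 ± 0.39 and -0.40 ± 0.021 (SD, n = 4 each). Rcor2 rested on 527 reads, 29 to 99 per allele and library, and its difference ran from -1.29 to -0.39 over the libraries.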

How the data were processed

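RNAseq of untreated F123-ESCs (4 libraries, paired reads of 150 bp) was examined. The authors removed ribosomal RNA reads, trimmed with Trimmomatic (version 0.40, from the submitters' processing notes), aligned with STAR to mm10 masked at SNPs, assigned reads to S129 or CAST with SNPsplit, and deposited RPKM per gene, allele and library. They also deposited the average RPKM and log10 of the average plus 1, which were not used here. The counting program, its strand setting and the annotation are not given in the sources used here.

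Columns were matched to libraries by allele and number; a minus sign stands before the number in the name of the S129 column taken as replicate 1. Genes were matched by identifier to GENCODE M21 (24003 of 24026), in mm10 coordinates. Whole reads were recovered from the steps between RPKM values for 94.5% of the 20243 genes above 0 (all alleles and libraries within 0.02 reads, or 2e-07 of the value for many reads). Total reads were 17403695 to 28772351 per allele and library. Intervals and the floor of 3 reads reflect counting error alone, because these reads carry no molecular identifiers and may repeat a molecule.

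Members and gene lists were chosen with earlier results of these data known. Named are all members, the other NuRD subunits, and from each further list the 2 highest, the lowest and up to 3 called genes with the largest difference. Levels are means of both alleles. Alleles were compared by limma (version 3.58.1, R 4.3.3) with an intercept model on log2(RPKM+0.1) differences taken library by library. Tested were genes whose alleles summed to at least 1 RPKM, and the fold is on this scale. Both alleles are read from the same library, which is where the pairing comes from; over 12869 autosomal genes, deviations from the allele mean correlated by 0.106 to 0.202 for the same library and by -0.162 to 0.145 for different ones. Similar transcripts were searched with blastn (2.17.0). Scripts were tested on simulated data.

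Alternatives were pseudocounts of 0.01 and 1, no filter or at least 10 RPKM, a variance trend, no replicate block, whole reads, exon-union lengths, each allele alone, each library left out, and medians of the autosomes, the chromosome or 5 Mb taken out. Windows of 2 Mb and 10 Mb and a median-ratio scaling of the libraries were added after seeing the data.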

Additional observations from a re-analysis of the deposited data

Results flagged for a closer look

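Of 29 quantities over 4 libraries, 3 held a library whose gap to the nearest of the others passed Dixon's criterion at 95%, and chance gives about 1 in 20. Mta3 had a level of 51.3 RPKM in replicate 1, compared with 55.8 to 56.3 RPKM in the others. Hdac2 had 76.4 RPKM in replicate 4, compared with 93.8 to 96.2 RPKM in the others. Both levels are without scaling of the libraries. After each library was divided by its median ratio, Mta3 had 52.3, 53.7, 53.3 and 59.8 RPKM in replicates 1 to 4. Replicate 1 of Mta3 then lay near replicates 2 and 3. Hdac2 then had 95.7, 92.1, 91.1 and 81.8 RPKM, so that its replicate 4 stayed the lowest. The log2 ratio of Hdac1 to Hdac2 was 0.11 in replicate 1, compared with 0.32 to 0.36 in the others.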

How the results depend on the processing

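The counts of genes called in each direction stayed within 1.5 times under all alternatives. Of the 10 genes, 7 were called; with medians within 2 Mb taken out, 4 were (55.3% of all genes, and no window held enough genes for Hdac2), and without the replicate block, 5 were (48.2% of all genes), Chd1 and Hdac2 being lost and no other call of the 10 changing. The difference of Gatad2b turned to 0.0239 with medians within 5 Mb taken out, 0.0078 within 2 Mb and 0.043 within 10 Mb, and was -0.10 with the chromosome median taken out (adjusted p = 0.326 by limma). That of Mta2 turned to 0.0093 within 2 Mb, and that of Mta1 ran from -0.25 to 0.036 when each library was left out in turn, turning without replicate 1. The log2 ratio of Mta2 to Mta3 was -0.53 and turned to 0.71 with exon-union lengths; that alternative changes the gene length only. Hdac2 also lost its call without a filter (adjusted p = 0.0900 by limma). Hdac1 passed with at least 10 RPKM, a variance trend, the autosomal or chromosome median taken out, or whole reads, and Mta2 with at least 10 RPKM or a variance trend. Reads over SNPs limit Mta1 most.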
